A study of Mus musculus with 12 samples.

Results

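The interferon response and MHC class I genes followed here are 38 mouse genes: 28 act in the interferon response as transcription factors, RNA sensors or antiviral proteins, and 10 make or load class I antigen-presenting molecules. A gene was a member through any array probe whose transcript accession maps to its symbol. Probes matched 36 of the 38 members on each of 2 array designs, and Mx1 and Mx2 had none. The whole designs held 18749 and 20660 genes by the same matching.

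Total RNA was measured on 12 one-colour (Cy3) Agilent arrays from J1 cells, a single line of mouse embryonic stem cells. Cells were given 1 µM retinoic acid (RA, 3 samples) or 1 µL of its solvent DMSO (3 samples), and on the other array design 50 µg of vitamin C (VC, 3 samples) or 1 µL of ddH2O (3 samples), each for 24 h. All groups, controls included, grew on gelatin in serum replacement medium with 1000 U/mL LIF, the cytokine that keeps mouse stem cells undifferentiated, so the RA samples received RA in the presence of LIF. The labels do not say that the samples of a group were separate cultures, so the p-values below cover the spread among these samples alone, and that spread may be technical.

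Interferons are secreted signals that bind cell-surface receptors, activate JAK kinases and bring STAT and IRF proteins to the promoters of antiviral genes, many of which carry the interferon-stimulated response element. Class I molecules show peptides at the cell surface: immunoproteasome subunits help cut the peptides, the TAP transporter moves them into the endoplasmic reticulum, tapasin loads them, and a heavy chain bound to beta-2-microglobulin carries them out. Mouse embryonic stem cells are known for a weak interferon response and low surface class I, and RA is a widely used inducer of their differentiation.

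Promoter windows of 300 bases (250 before and 50 after the gene's start, RefSeq, build GRCm38.p6) were found for 32 of the 38 members. The response element was searched as GAAA, any 2 bases and GAAA, on both strands. It was in 3.44% of all 32851 windows and in 14 of the 38 windows that these 32 members have (36.8%). By gene it was in 14 of the 32 members. A match is a description of the letters only. Those 14 were B2m, Bst2, Ddx58, Eif2ak2, H2-T23, Ifih1, Ifit1, Ifit3, Ifitm2, Ifitm3, Isg15, Oas1a, Rsad2 and Stat2. The promoters of 6 are shown because 4 of these genes rose in RA (H2-T23, B2m, Ifih1 and Isg15) and the other two fell (Ddx58 and Bst2) although all hold the element. Each runs 5′ to 3′ along the gene's own strand, with the element in capitals, and copies that begin with TTTC are the same element read on the other strand.
H2-T23: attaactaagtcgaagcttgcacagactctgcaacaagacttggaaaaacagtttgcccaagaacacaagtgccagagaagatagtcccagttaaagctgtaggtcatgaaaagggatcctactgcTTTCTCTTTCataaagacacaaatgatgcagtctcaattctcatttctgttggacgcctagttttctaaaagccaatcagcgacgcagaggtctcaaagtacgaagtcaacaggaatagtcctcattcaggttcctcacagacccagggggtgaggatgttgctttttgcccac
B2m: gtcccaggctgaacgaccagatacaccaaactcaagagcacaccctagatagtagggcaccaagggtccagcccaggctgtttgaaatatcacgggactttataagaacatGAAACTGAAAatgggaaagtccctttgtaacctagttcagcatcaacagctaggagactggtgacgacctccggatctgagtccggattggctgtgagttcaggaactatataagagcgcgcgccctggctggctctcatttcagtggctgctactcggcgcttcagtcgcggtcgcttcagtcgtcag
Ifih1: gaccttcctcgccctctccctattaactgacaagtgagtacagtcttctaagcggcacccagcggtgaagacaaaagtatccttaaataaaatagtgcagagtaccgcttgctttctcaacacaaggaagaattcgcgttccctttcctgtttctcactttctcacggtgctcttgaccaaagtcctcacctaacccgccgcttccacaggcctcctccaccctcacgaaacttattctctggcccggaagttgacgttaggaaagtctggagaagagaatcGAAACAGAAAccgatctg
Isg15: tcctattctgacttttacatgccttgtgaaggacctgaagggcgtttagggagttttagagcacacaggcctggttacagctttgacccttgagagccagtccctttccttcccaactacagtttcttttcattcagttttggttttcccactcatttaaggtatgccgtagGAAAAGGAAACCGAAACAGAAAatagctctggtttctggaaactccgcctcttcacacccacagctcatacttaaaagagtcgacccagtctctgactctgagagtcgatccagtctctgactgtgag
Ddx58: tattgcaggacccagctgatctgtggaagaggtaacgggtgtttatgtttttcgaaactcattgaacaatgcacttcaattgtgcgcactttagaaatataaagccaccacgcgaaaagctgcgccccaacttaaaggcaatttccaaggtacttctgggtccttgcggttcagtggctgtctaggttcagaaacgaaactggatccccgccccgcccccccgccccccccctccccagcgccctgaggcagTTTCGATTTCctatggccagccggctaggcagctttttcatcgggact
Bst2: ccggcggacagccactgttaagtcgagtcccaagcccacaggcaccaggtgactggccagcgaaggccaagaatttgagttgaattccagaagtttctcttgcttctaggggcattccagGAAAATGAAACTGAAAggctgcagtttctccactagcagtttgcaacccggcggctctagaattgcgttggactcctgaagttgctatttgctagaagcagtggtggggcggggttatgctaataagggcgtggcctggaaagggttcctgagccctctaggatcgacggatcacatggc
The windows lie at chr17:36032652-36032951 (minus strand) for H2-T23, chr2:122147437-122147736 (plus strand) for B2m, chr2:62646206-62646505 (minus strand) for Ifih1, chr4:156200769-156201068 (minus strand) for Isg15, chr4:40239776-40240075 (minus strand) for Ddx58 and chr8:71537423-71537722 (minus strand) for Bst2. Isg15 holds 3 overlapping copies between bases -78 and -57 from the start, and Bst2 holds 2 between -130 and -115. Ifih1 and Ddx58 hold their copies after the start, Ifih1 from base 33 to 42 and Ddx58 from base 3 to 12.

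Levels are given as log2 of the processed signal minus the log2 of the array's 75th percentile, so a difference of 1 is 2-fold and 0 is the 75th percentile. Probes differ in brightness, so levels are compared within a gene only. A probe counted as detected on an array where the scanner software flagged it as well above background, which held for 60.8% to 65.6% of probes on the RA and DMSO arrays and for 66.9% to 70.3% on the VC and ddH2O arrays. All RA arrays lay on one slide and all DMSO arrays on another, so slide and treatment cannot be told apart in that comparison. VC replicates 1 and 2 shared a slide with ddH2O replicates 2 and 3, ddH2O replicate 1 was the only one of these 6 arrays on its slide, and VC replicate 3 was the only one on a slide that was scanned on another day. A gene entered the test where its brightest probe was detected on 3 or more of its design's 6 arrays, and it was called at a Benjamini-Hochberg adjusted p under 0.05 in limma over all genes tested.

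In RA, 16 of the 32 members tested rose and 12 fell, against 35.9% and 42.1% of the 16015 genes tested. Class I genes made up 8 of the 16 rises, and the RNA sensor gene Ddx58 and the membrane factor gene Bst2 had the largest falls. The median log2 difference of the 32 members was 0.22, against -0.075 over all genes tested, and 13 members were at least 2-fold higher and 7 at least 2-fold lower. RA and DMSO arrays did not overlap in any of these 28 genes, a pattern that 37.4% of all genes showed upward and 44.4% downward. A call in either direction was made for 78% of all genes, and the members are described below by their sizes. Counts by role below are to be read beside these shares of all genes. The balance of the directions depended on the scaling: all genes split into 5742 higher and 6745 lower as given, 3974 and 8795 with each array centred on its median, and 2815 and 7021 when scaled to spike-in probes. Members split into 16 and 12, 14 and 16, and 13 and 12 under the same scalings. Ifit1, Ifit3, Ifi44 and Rsad2 were not tested because their probes were detected on too few arrays.

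**Figure D1:**
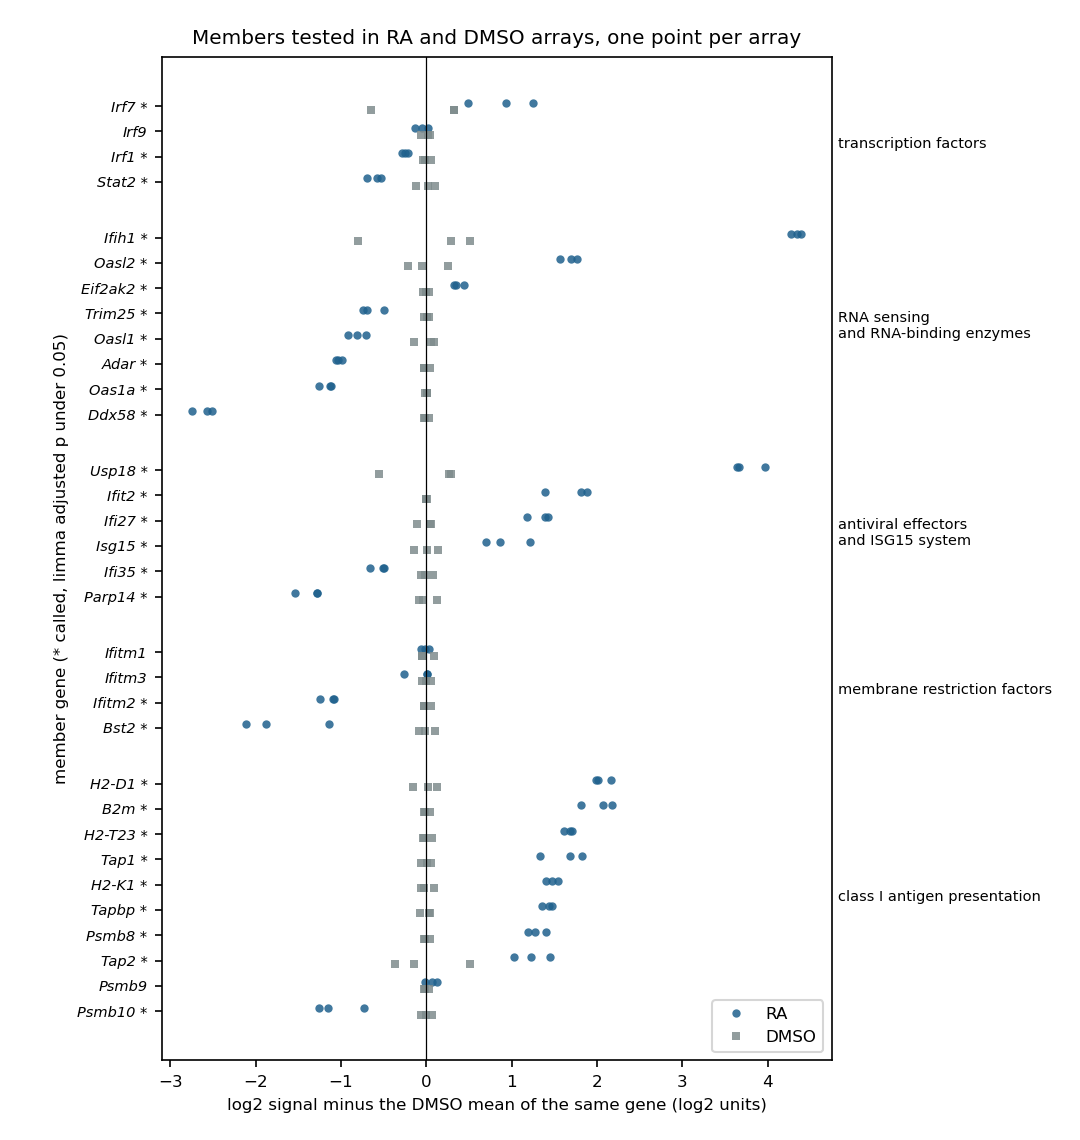
Log2 signal of the 32 members tested in the RA and DMSO samples, each array drawn as 1 point relative to the DMSO mean of the same gene (x axis, log2 units), with members grouped by role down the page and called genes starred. Of the 10 class I genes, 8 have all RA points to the right of all DMSO points, Psmb9 lies at 0, and Psmb10 lies to the left with Ddx58 and Bst2.

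Markers of cell state differed strongly between RA and DMSO. All 8 embryonic stem cell markers fell, Pou5f1 by 33.0-fold and Klf4 by 29.3-fold, and their summed signal, in multiples of the array's 75th percentile, was 86.1 to 94.5 in RA samples and 509 to 528 in DMSO samples. Of 7 fibroblast markers tested, 6 rose and 1 fell, and Col1a2 was 68.6-fold higher. The sum over the 10 fibroblast markers with a probe was 38.4 to 41.2 in RA and 2.13 to 2.29 in DMSO, with Fap, Lum and Postn not detected on any array. Each such sum weighs its brightest probes most. Of 6 blood and immune markers tested, 4 rose, and the sum over the 9 with a probe was 29.6 to 43.4 in RA and 14.8 to 15.3 in DMSO. Among them Ptprc, which marks all white blood cells, was detected on 3 RA arrays and 1 DMSO array, and Lyz2 and Spi1 on no array. Endothelial markers had 1 rise and 3 falls among 5. The part of these cell state differences in the member changes was not tested, and in bulk RNA a change in the number of cells of a type and a change in RNA per cell cannot be told apart.

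The 3 class I heavy chain members rose in RA. H2-D1, a classical heavy chain gene, had log2 signals of 2.65, 2.49 and 2.47 in the RA samples, against 0.33, 0.51 and 0.61 in the DMSO samples. Every RA sample was above every DMSO sample, and the gene was 4.16-fold higher (log2 2.06 ± 0.095 SE, adjusted p = 5.16e-06 by limma). H2-K1, the other classical heavy chain gene measured, had 3.9, 4.04 and 3.97 in RA and 2.43, 2.47 and 2.58 in DMSO. The 3 RA arrays again stood above all DMSO arrays, by 2.78-fold (log2 1.47 ± 0.072 SE, adjusted p = 6.52e-06 by limma), and another probe of the gene gave a log2 difference of 1.41. H2-T23, which encodes the nonclassical molecule Qa-1, had 2.02, 2.0 and 1.93 in RA samples and 0.28, 0.28 and 0.38 in DMSO samples. Its groups did not overlap and differed 3.18-fold upward (log2 1.67 ± 0.062 SE, adjusted p = 2.10e-06 by limma). H2-Q4, a heavy chain gene outside the members, differed by 0.045 and did not pass (limma adjusted p = 0.770). Heavy chain genes are close in sequence, and whether these probes bind each other's transcripts was not tested.

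B2m, the light chain that every class I heavy chain needs to reach the surface, rose with them. Its log2 signals were 3.24, 3.35 and 2.98 in RA and 1.15, 1.14 and 1.21 in DMSO. No DMSO array came within a log2 unit of any RA array, and B2m was 4.07-fold higher (log2 2.02 ± 0.10 SE, adjusted p = 7.84e-06 by limma). The peptide transporter genes Tap1 and Tap2 rose too. Tap1, a subunit of the peptide transporter, had -3.16, -3.02 and -3.52 in RA, against -4.91, -4.8 and -4.84 in DMSO. Tap2, its partner subunit, had -0.28, -0.47 and -0.057 in RA, against -0.99, -1.64 and -1.87 in DMSO. RA samples were the higher ones for both, with the DMSO samples of Tap2 spread over most of a log2 unit (SD 0.46, n = 3), and the rises were 3.06-fold for Tap1 (SE 0.13 in log2, adjusted p = 6.06e-05 by limma) and 2.35-fold for Tap2 (SE 0.24 in log2, adjusted p = 0.00328 by limma). Tapbp, which encodes tapasin, was 2.69-fold higher (log2 1.43 ± 0.065 SE).

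The 3 immunoproteasome catalytic subunits did not move together in RA. Psmb8 had -0.82, -0.60 and -0.74 in RA samples and -2.03, -2.03 and -1.96 in DMSO samples. All RA arrays were higher, by 2.44-fold (SE 0.074 in log2, adjusted p = 1.29e-05 by limma). Psmb10 went the other way, with 3.39, 3.28 and 3.81 in RA and 4.6, 4.54 and 4.47 in DMSO. Each RA array was below each DMSO array, and the gene was 2.06-fold lower (SE 0.14 in log2, adjusted p = 0.000662 by limma). Psmb9 averaged -0.017 ± 0.073 in RA and -0.075 ± 0.031 in DMSO (SD, n = 3 each), a log2 difference of 0.058 that did not pass (limma adjusted p = 0.424). The constitutive subunits that these 3 replace in the proteasome, Psmb5, Psmb6 and Psmb7, all fell, with log2 differences of -0.50, -0.33 and -0.81. Psmb9, Tap1, Psmb8 and Tap2 follow each other as protein-coding genes on chromosome 17, and Psmb9 and Tap1 are known to be read in opposite directions from a shared promoter region. Of these neighbours Psmb9 did not pass in RA and the other 3 rose. Over all 10 class I members the median log2 difference in RA was 1.45.

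RNA sensors and RNA-binding enzymes moved both ways in RA, with 3 of 8 higher and 5 of 8 lower, as did all genes tested (35.9% higher and 42.1% lower). Ifih1 encodes MDA5, a cytoplasmic sensor of long double-stranded RNA, and had -3.17, -3.12 and -3.24 in RA, against -7.0, -8.31 and -7.21 in DMSO. It was detected on all 3 RA arrays and on no DMSO array, so its rise is given as a bound, at least 7.53-fold (limma adjusted p = 4.56e-05), where a bound sets the RA mean against, on each DMSO array, the higher of the gene's own signal and the lowest signal among detected probes. Ddx58 encodes RIG-I, the related sensor of short RNA with a triphosphate end, and had 0.0048, 0.067 and -0.17 in RA, against 2.56, 2.55 and 2.61 in DMSO. Its RA arrays lay far below all DMSO arrays, 6.08-fold lower (log2 -2.6 ± 0.078 SE, adjusted p = 8.73e-07 by limma), and its other probe gave a log2 difference of -1.38. Both sensor promoters hold the element shown above. Trim25, the ubiquitin ligase that activates RIG-I, was 1.56-fold lower (log2 -0.64 ± 0.079 SE).

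The oligoadenylate synthetase family also split. Oas1a, which makes a short oligoadenylate messenger on binding double-stranded RNA, had -0.095, -0.22 and -0.079 in RA and 1.02, 1.04 and 1.04 in DMSO. Oasl1, a synthetase-like gene, had -1.75, -1.86 and -1.96 in RA and -0.99, -0.95 and -1.19 in DMSO. Both were lower in every RA sample, Oas1a by 2.24-fold (SE 0.063 in log2, adjusted p = 1.01e-05 by limma) and Oasl1 by 1.76-fold (SE 0.093 in log2, adjusted p = 0.000274 by limma). Oasl2, the protein-coding gene next to Oasl1 on chromosome 5, had -1.55, -1.42 and -1.35 in RA and -2.85, -3.33 and -3.16 in DMSO. It was higher in every RA sample, by 3.19-fold (SE 0.13 in log2, adjusted p = 4.91e-05 by limma). Adar, the enzyme that edits adenosine in double-stranded RNA, had 0.65, 0.60 and 0.58 in RA and 1.62, 1.68 and 1.61 in DMSO. The RA arrays were 2.03-fold lower on this probe (SE 0.057 in log2, adjusted p = 1.15e-05 by limma), while the gene's other probe differed by -0.16 and did not pass, so the size depends on the probe. Eif2ak2, which encodes the RNA-activated kinase PKR, was 1.29-fold higher (log2 0.37 ± 0.062 SE), a rise that was lost when arrays were scaled to their spike-in probes (log2 difference -0.014) or to their medians (log2 difference 0.031, limma adjusted p = 0.728).

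Among the antiviral effectors and the ISG15 system, 4 of 6 tested members rose in RA. Usp18, the protease that removes ISG15 from proteins and dampens interferon receptor signalling, had -2.0, -2.31 and -2.33 in RA, against -6.52, -5.69 and -5.71 in DMSO. It was detected on every RA array and on no DMSO array, and was at least 12.1-fold higher (limma adjusted p = 2.11e-05). The bounds of Usp18 and Ifih1 hold for the processed signal: with normexp background correction their log2 differences were 1.65 and 1.43, and both kept their calls. Ifit2, which encodes an RNA-binding inhibitor of viral translation, had -3.19, -3.12 and -3.61 in RA and -4.99, -5.01 and -5.01 in DMSO. The 3 DMSO arrays were nearly equal and below all RA arrays, a 3.25-fold rise (SE 0.14 in log2, adjusted p = 5.32e-05 by limma). Isg15, the ubiquitin-like protein that Usp18 removes, had -0.76, -0.24 and -0.60 in RA and -1.33, -1.61 and -1.45 in DMSO. RA arrays were above DMSO arrays, 1.91-fold (SE 0.15 in log2, adjusted p = 0.00138 by limma), and its other probe gave a log2 difference of 1.55. That other probe was detected on all 3 RA arrays and on no DMSO array, so the size of its difference is uncertain. With spike-in scaling the difference of Isg15 was 0.54 and did not pass (limma adjusted p = 0.0827). Ifi27 was 2.51-fold higher. Parp14, an ADP-ribosyltransferase, fell, with -1.47, -1.46 and -1.73 in RA and -0.060, -0.22 and -0.27 in DMSO. No RA array reached the DMSO arrays, and RA was 2.58-fold lower (log2 -1.37 ± 0.10 SE, adjusted p = 3.89e-05 by limma). Ifi35 was 1.46-fold lower (log2 -0.55 ± 0.073 SE).

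Membrane restriction factors, which hold viruses at the cell surface or block their fusion, had 2 falls among 4 members in RA. Bst2, which encodes the virus tether tetherin, had 1.89, 2.87 and 2.13 in RA and 4.1, 4.0 and 3.92 in DMSO. The RA samples spread over about a log2 unit and all lay below the DMSO samples, 3.27-fold lower (log2 -1.71 ± 0.25 SE, adjusted p = 0.000849 by limma). Ifitm2 had 3.83, 3.84 and 3.68 in RA and 4.9, 4.89 and 4.98 in DMSO. Every RA array was lower, by 2.21-fold (SE 0.070 in log2, adjusted p = 1.71e-05 by limma). Its neighbours on chromosome 7, Ifitm1 and Ifitm3, differed by -0.014 and -0.083 on the log2 scale and did not pass.

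Transcription factors of the pathway had 1 rise and 2 falls among 4 members in RA. Stat2, part of the complex that binds the response element, had 1.34, 1.38 and 1.21 in RA and 1.94, 2.02 and 1.79 in DMSO. All RA samples were lower, by 1.52-fold (SE 0.085 in log2, adjusted p = 0.000735 by limma). Irf9, the partner of Stat2 that contacts DNA, differed by -0.052 and did not pass, and Irf1 was 1.19-fold lower (log2 -0.25 ± 0.059 SE). The Irf1 call was lost with quantile normalization, at a log2 difference of 0.015 (limma adjusted p = 0.835), and with the authors' series values, at -0.024 (limma adjusted p = 0.734). Irf7, the factor that amplifies type I interferon production, averaged -5.26 ± 0.38 in RA and -6.15 ± 0.56 in DMSO (SD, n = 3 each). It was detected on 2 of 3 arrays of each group and its rise of 0.89 just passed (limma adjusted p = 0.0409). Without RA replicate 1 that difference was 0.71 (limma adjusted p = 0.122), without RA replicate 2 it was 0.86 (limma adjusted p = 0.0943), and without DMSO replicate 1 it was 0.56 (limma adjusted p = 0.0717). The Irf7 call was also lost, with smaller differences, under quantile normalization (0.42, limma adjusted p = 0.297), median scaling (0.54, adjusted p = 0.170), spike-in scaling (0.50, adjusted p = 0.113) and the authors' series values (0.45, adjusted p = 0.281). The other 27 calls in RA held in each of the 6 fits that left out 1 sample.

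In VC, 10 of 33 members tested fell and 1 rose, against 10.6% and 6.59% of the 14530 genes tested, 17.1% in either direction. Of the 10 falls, 5 were in class I presentation genes. The changes were small: the most, in Tap2, was 1.71-fold, and the median over the 33 members was -0.16 on the log2 scale, against -0.00057 over all genes tested. VC and ddH2O arrays did not overlap for 13 members downward and 5 upward, where 21.9% and 20.2% of all genes did the same. All genes split into 958 higher and 1533 lower, against 1511 and 1157 with each array centred on its median, and 51 and 388 when scaled to spike-in probes, which left 1 member lower. Ifit1, Ifit3 and Ifi44 were not tested, and of these Ifit1 was detected only on ddH2O replicate 2.

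**Figure D2:**
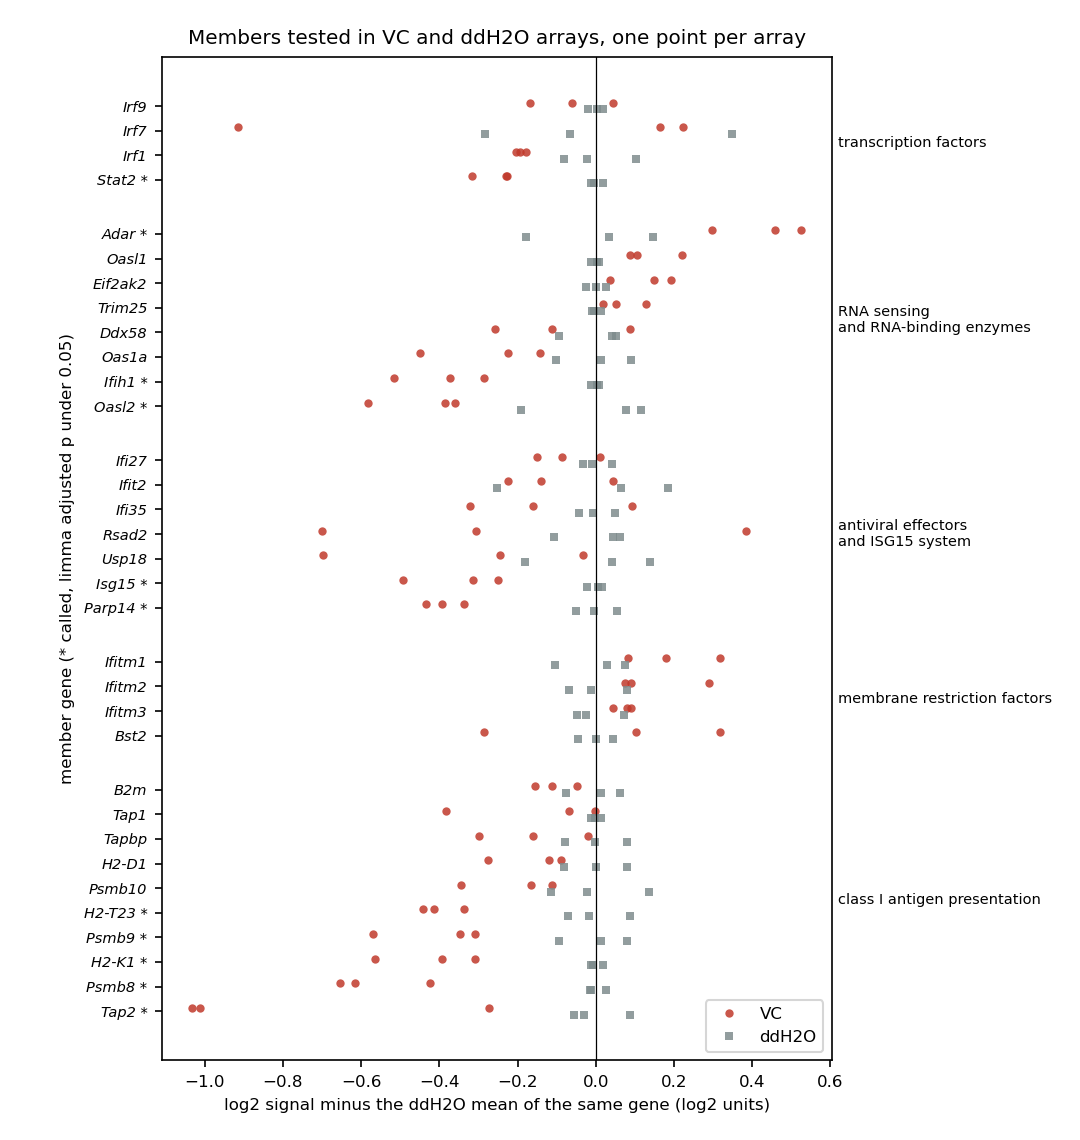
Log2 signal of the 33 members tested in the VC and ddH2O samples, each array drawn as 1 point relative to the ddH2O mean of the same gene (x axis, log2 units), with members grouped by role down the page and called genes starred. The 5 class I genes that fell have all VC points left of all ddH2O points, and Adar lies to the right.

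Class I genes had 5 falls among 10 members in VC. Tap2, the transporter subunit, had -3.88, -4.62 and -4.64 in VC samples and -3.67, -3.52 and -3.64 in ddH2O samples. All VC arrays were below all ddH2O arrays, VC replicate 1 by much less than the other two, and the log2 difference was -0.77 (SE 0.20, adjusted p = 0.0486 by limma). Psmb8 had -1.79, -1.56 and -1.75 in VC and -1.15, -1.15 and -1.11 in ddH2O. The VC arrays were lower by more than the spread of either group, 1.48-fold (log2 -0.56 ± 0.074 SE, adjusted p = 0.00929 by limma), and the other Psmb8 probe, with a log2 difference of -0.39, did not pass. Psmb9 had 0.13, 0.39 and 0.35 in VC and 0.61, 0.78 and 0.71 in ddH2O. It too was lower in every VC sample, by 1.33-fold (SE 0.089 in log2, adjusted p = 0.0292 by limma). The calls of Tap2 and Psmb9 were each kept in 1 of the 6 fits that left out 1 sample. Between these neighbours on chromosome 17, Tap1 averaged -3.77 ± 0.20 in VC and -3.61 ± 0.014 in ddH2O (SD, n = 3 each) and did not pass (limma adjusted p = 0.346).

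Heavy chain genes H2-K1 and H2-T23 fell in VC and H2-D1 did not pass. H2-K1 had 2.66, 2.92 and 2.84 in VC and 3.25, 3.22 and 3.22 in ddH2O. Its groups did not overlap and VC was 1.34-fold lower (log2 -0.42 ± 0.076 SE, adjusted p = 0.0190 by limma), with log2 differences of -0.089 and -0.27 on its other probes, which did not pass. H2-T23 had 0.38, 0.46 and 0.35 in VC and 0.88, 0.72 and 0.78 in ddH2O. Each VC array was below each ddH2O array, 1.32-fold (SE 0.065 in log2, adjusted p = 0.0147 by limma). H2-D1, B2m, Tapbp and Psmb10 had log2 differences of -0.16, -0.10, -0.16 and -0.21 and did not pass. Another H2-D1 probe was at -2.11 on ddH2O replicate 3, far from its levels of 1.76 and 1.86 on the other ddH2O arrays.

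Antiviral and RNA sensing members had 4 falls and 1 rise in VC. Isg15 had -3.72, -3.97 and -3.79 in VC and -3.47, -3.5 and -3.46 in ddH2O. Parp14 had -0.91, -0.85 and -0.95 in VC and -0.46, -0.56 and -0.52 in ddH2O. For both, every VC sample was lower than every ddH2O sample, with log2 differences of -0.35 for Isg15 (SE 0.075, adjusted p = 0.0271 by limma) and -0.39 for Parp14 (SE 0.057, adjusted p = 0.0114 by limma). Oasl2 had -2.88, -2.66 and -2.69 in VC and -2.19, -2.49 and -2.22 in ddH2O. The gap between its groups was narrow, since ddH2O replicate 2 lay near the VC samples, and the log2 difference was -0.44 (SE 0.11, adjusted p = 0.0371 by limma). Of the 6 fits that left out 1 sample, none kept the call of Oasl2 and 1 kept that of Isg15. Ifih1, the MDA5 gene, had -6.11, -6.02 and -6.25 in VC and -5.73, -5.75 and -5.73 in ddH2O. The VC arrays were all lower. The gene was detected on all ddH2O arrays and on no VC array. Its bound on the processed signal, taken as in RA, was 1.15-fold lower in VC (limma adjusted p = 0.0189). That bound did not hold under all settings. With normexp without spots of high local background the log2 difference was -0.11 (limma adjusted p = 0.640), and with plain normexp it was 0.94. A limma fit with an intensity trend did not keep the call (adjusted p = 0.299).

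Adar was the one member that rose in VC on the brightest probes. It had 0.58, 0.42 and 0.65 in VC and -0.054, 0.16 and 0.27 in ddH2O. All VC arrays were above all ddH2O arrays, 1.34-fold (log2 0.43 ± 0.10 SE, adjusted p = 0.0386 by limma), and the gene's other probe differed by 0.18 and did not pass. Stat2 had 1.27, 1.36 and 1.36 in VC and 1.58, 1.61 and 1.58 in ddH2O. It was lower in every VC sample, by 1.2-fold (SE 0.052 in log2, adjusted p = 0.0247 by limma), a call kept in 1 of 6 fits that left out 1 sample. Irf1, Irf7 and Irf9 had log2 differences of -0.19, -0.18 and -0.062, and the membrane factors Ifitm1, Ifitm2, Ifitm3 and Bst2 of 0.19, 0.15, 0.071 and 0.045, and these 7 did not pass. The RNA sensing members Oasl1, Eif2ak2, Ddx58 and Oas1a differed by 0.14, 0.13, -0.094 and -0.27 and did not pass. Nor did the antiviral members Ifi27, Ifit2, Ifi35, Rsad2 and Usp18, with log2 differences of -0.075, -0.11, -0.13, -0.21 and -0.33, and Rsad2 was detected on 1 VC array and 3 ddH2O arrays. Trim25 differed by 0.066 on its brighter probe, which did not pass, and by 0.35 on its dimmer one. In a limma fit over all probes that dimmer Trim25 probe passed (adjusted p = 0.0400) and the brighter Adar probe did not (adjusted p = 0.0609), and with the mean of detected probes Trim25 was called higher as well as Adar (Trim25 log2 difference 0.21, limma adjusted p = 0.0411).

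Slides bear on the VC comparison. Each of the 11 called members kept its direction on the slide that holds VC and ddH2O arrays and between the remaining arrays. That was certain beforehand, because the groups of all 11 did not overlap, so it cannot test the part of the slides. Psmb8 differed by -0.54 on the shared slide (2 arrays a group) and by -0.60 on the others (1 array a group), H2-K1 by -0.43 and -0.41, and Adar by 0.29 and 0.70. A fixed slide block takes the difference from the shared slide alone (2 arrays a group), since each other slide held 1 of these arrays. With the slide as such a block limma called 0 genes of 14530, members included. The smaller number of arrays and the slide adjustment cannot be told apart in that count. In the same fit 3889 genes, 15 members among them, had an unadjusted p under 0.05, and 14 of those 15 members were lower in VC. With the slide as a random block, at a consensus correlation of 0.15, limma called 1046 genes higher and 1641 lower and all 11 members kept their calls. The count of members lower in VC was 10 with all samples, 4 without VC replicate 1, 5 without VC replicate 3, 3 without ddH2O replicate 1, 2 without ddH2O replicate 2 and 5 without ddH2O replicate 3. Psmb8 and Parp14 kept their calls in all 6 such fits, H2-K1 and H2-T23 in 4, Ifih1 in 3, Adar in 2, Isg15, Psmb9, Stat2 and Tap2 in 1 each, and Oasl2 in 0. The call of Adar was lost without VC replicate 1, VC replicate 3, ddH2O replicate 1 or ddH2O replicate 2, and its log2 difference ranged from 0.34 to 0.50 over the 6 fits. The 10 members lower in VC stayed below 0 in all 6, which groups that do not overlap must do.

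**Figure D3:**
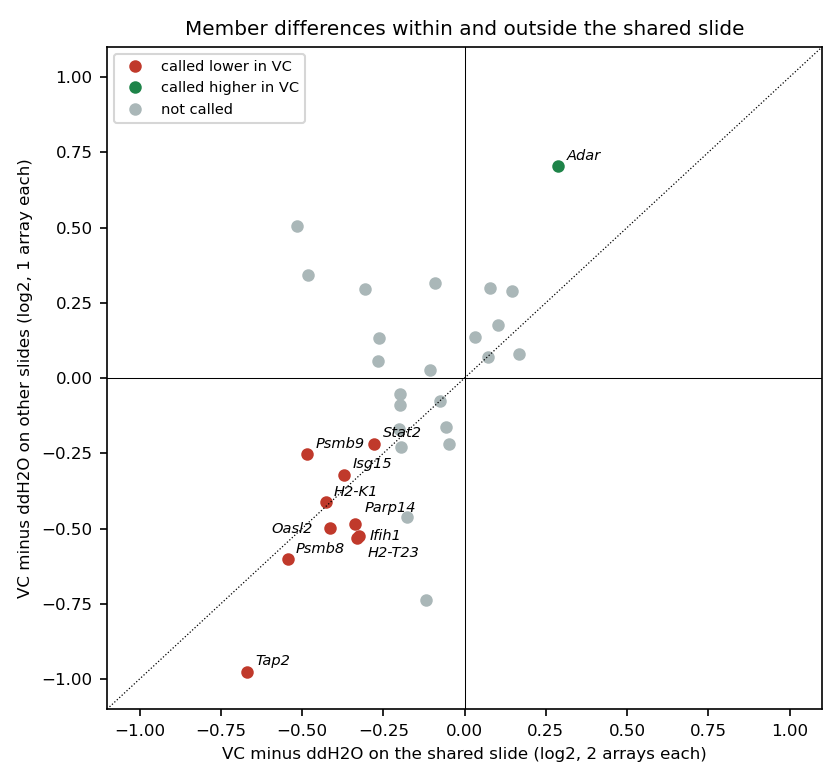
Log2 difference, VC minus ddH2O, of the 33 members tested, on the slide that VC and ddH2O arrays share (x axis, 2 arrays a group) and between the arrays on other slides (y axis, 1 array a group), with the dotted line where both are equal. The 10 members that fell lie in the lower left and Adar in the upper right, while several members that did not pass lie in the upper left. For the called members these quadrants follow from groups that do not overlap.

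Marker levels differed less between VC and ddH2O. Of 8 stem cell markers, 4 rose, Klf4 by 1.31-fold, and their sum was 586 to 637 in VC and 551 to 630 in ddH2O. Of 7 fibroblast markers tested, 3 fell. The sum over the 10 with a probe was 2.97 to 3.1 in VC and 3.82 to 4.14 in ddH2O, with Fap and Lum not detected on any array. The sum of blood and immune markers was 0.537 to 0.634 in VC and 0.509 to 0.628 in ddH2O, with Ptprc, Lyz2 and Spi1 not detected on any array. The part of the stem cell and fibroblast marker differences in the member changes was not tested.

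Set side by side, RA and VC had opposite calls for 8 members. Of the 10 members lower in VC, 7 were higher in RA, namely Tap2, Psmb8, Oasl2, H2-K1, H2-T23, Ifih1 and Isg15, while Parp14 and Stat2 were lower in both and Psmb9 passed in VC alone. Adar was lower in RA and higher in VC. The opposite calls of H2-K1, H2-T23 and Oasl2 came from the same probe on both designs, and those of Tap2, Ifih1, Isg15, Psmb8 and Adar from different probes. The Adar probe on both designs differed by -0.16 in RA and 0.18 in VC and passed in neither, and the Psmb8 probe on both, called in RA, differed by -0.39 in VC and did not pass (limma adjusted p = 0.0771 over all probes). Over all 13727 genes tested in both, 780 of the 1456 lower in VC were higher in RA and 437 were lower in RA. The direction of Adar, higher in VC and lower in RA, was called for 551 of the 13727 genes. The comparisons share no samples and lie on separate array designs, and the difference between the RA and VC effects was not tested.

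**Figure D4:**
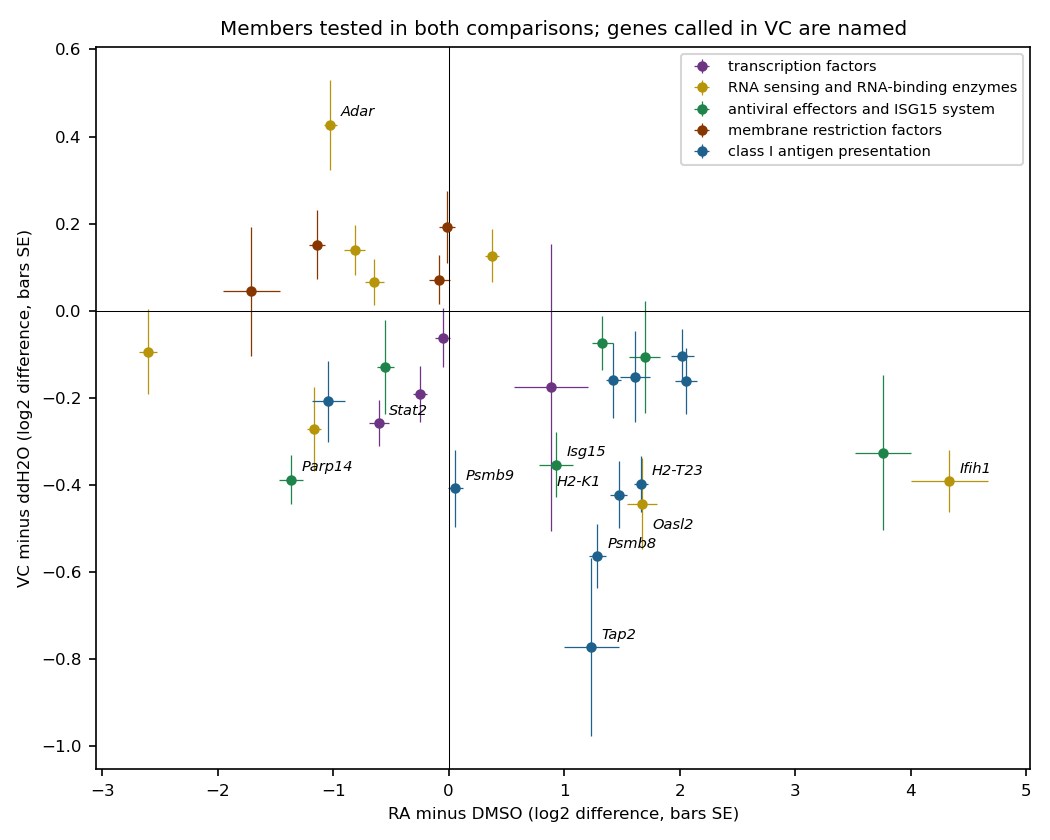
Log2 difference in RA minus DMSO (x axis) and in VC minus ddH2O (y axis) for the 32 members tested in both comparisons, with bars of 1 SE and colours by role. Of the 10 members called lower in VC, 7 were called higher in RA and lie in the lower right. Psmb9, not called in RA, also lies there, at 0.058 in RA. Adar is the one gene called in VC that lies in the upper left.

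Promoter letters were then set beside the directions. Of the 11 members tested in RA whose window holds the response element, 5 rose and 5 fell, and of the 17 whose window lacks it, 8 rose and 6 fell. In VC, 4 of 12 members with the element fell, as did 4 of 17 without it, and Adar, the member that rose, lacks it. The gamma-activated site, searched as TTCNNNGAA, was in 8.3% of all windows and in 23.7% of the 38 windows of the members. By gene it was in 9 of the 32 members, of which 3 rose and 5 fell in RA. Of the 19 tested members whose window lacks it, 10 rose and 6 fell in RA. The half-site that retinoic acid receptors and related nuclear receptors bind was searched as AGGTCA on both strands. It was in 16.3% of all windows and in 7 of the 38 windows of the members (18.4%). By gene it was in 6 of the 32 members, H2-D1, H2-K1, H2-T23, Irf9, Oasl1 and Psmb10. Of those 6, the 3 heavy chain genes rose in RA and Oasl1 and Psmb10 fell. Of the 22 tested members whose window lacks the half-site, 10 rose and 9 fell in RA. In H2-T23 the half-site, at bases -149 to -144, lies upstream of the response element at bases -124 to -115. Whether receptors act at these sites was not tested.

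Genes of the same pathway outside the 38 members were grouped in lists. The counts of each list are to be read beside the shares of all genes tested. Those were 35.9% higher and 42.1% lower in RA, and 6.59% higher and 10.6% lower in VC. Of 25 other interferon-induced genes tested in RA, 16 rose and 9 fell, with a median log2 difference of 1.04, against -0.075 over all genes tested. Igtp, an immunity-related GTPase gene, and Gbp2, a guanylate-binding protein gene, were 5.29-fold and 4.29-fold higher, and Oas2 and Samd9l were 13.1-fold and 6.85-fold lower. In VC, 11 of 22 such genes fell, against 10.6% of all genes tested, with a median of -0.28, against -0.00057 over all genes. Tdrd7 was 2.11-fold lower, Rtp4 1.51-fold, Gbp2 1.5-fold and Helz2 1.5-fold (limma adjusted p = 0.00510, 0.00862, 0.00599 and 0.0130). With the slide as a fixed block, or with normexp, no gene was called in VC, these included. Calls outside the members were not followed gene by gene under the other settings.

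Receptors and kinases upstream of the members moved both ways in RA, with 5 of 9 higher and 3 lower, as did all genes tested (35.9% higher and 42.1% lower). Jak2, Il10rb and Ifnar1, a kinase and 2 receptor chains, were 4.37-fold, 4.0-fold and 2.98-fold higher, and the kinase gene Tyk2 was 2.41-fold lower. In VC the interferon gamma receptor chain Ifngr1 was 1.3-fold lower, 1 call among 9. Among nucleic acid sensors and adaptors, 7 of 12 rose and 4 fell in RA, with Sting1, the adaptor of cytoplasmic DNA sensing, 5.29-fold higher and the kinase Tbk1 2.16-fold lower. In VC, 3 of those 12 fell and 1 rose. Among them Zbp1, a sensor of Z-form nucleic acid, was 2.16-fold lower, Dhx58 was 1.31-fold lower, and Tbk1 was 1.25-fold higher.

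Other class I presentation genes had 5 rises and 1 fall among 10 in RA. Erap1, the peptidase that trims peptides for class I, was 3.43-fold higher and the proteasome activator Psme2 1.78-fold higher. In VC 1 of 10 fell, H2-Q4, 1.34-fold lower (limma adjusted p = 0.0105).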

How the data were processed

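Total RNA of 12 samples was labelled with Cy3 and hybridised to 2 Agilent designs, VC with ddH2O on one and RA with DMSO on the other, and each design was fitted alone. The deposited scanner files hold a processed intensity per spot, with background already subtracted per the file headers, which name Agilent Feature Extraction 10.7.3.1 (10.7 in the submitters' processing notes). The deposited series tables hold the authors' log2 values per probe, with a normalization not given in the sources, and they served as an alternative.

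Log2 intensities were centred on each array's 75th percentile of non-control spots, spots with outlier flags were left out, and a probe's spots were averaged. The files pair probes with accessions and no gene names, so names came from a RefSeq gene table (GRCm38.p6, for names and gene order) for 27479 of 41174 probes on the VC design and 27235 of 55681 on the RA design. Members had 56 probes on the VC design and 43 on the RA design. The brightest probe stood for its gene, which was tested if detected on 3 or more arrays. Groups were compared with limma 3.58.1 (lmFit, eBayes; R 4.3.3) and Benjamini-Hochberg adjustment over all genes tested. The fits were tested on simulated data. No spot was saturated, and the 6 arrays a design limit the precision.

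The members, roles and lists were chosen with earlier results of these data known. Values in every sample are given for the 8 largest called rises and falls of each comparison, for members detected in one group alone and for members called in both comparisons. Up to 4 called genes a list with the largest change, and Pou5f1, Klf4 and Zfp42, could be named among other genes, and some genes of these lists are not reported here. Replicates of a group correlated at 0.992 to 0.998 over all tested genes. Alternatives were other scalings, background corrections, filters, probe summaries, blocks and each sample left out, and a repeat of the normexp background correction without spots of high local background was added after seeing the data. Normexp ran on the median signal of each spot.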

Additional observations from a re-analysis of the deposited data

How the results depend on the processing

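Among the RA results, the counts of members higher (16) and lower (12) stayed within 13 to 17 and 11 to 16 over the alternatives. Leaving out 1 sample gave 15 to 16 and 12. The scaling moved all genes: the median RA difference over all genes shifted by -0.34 under median scaling, -0.39 under spike-in scaling, 0.12 with normexp background correction and 0.27 with no filter on dim probes. The RA split of all calls was 5742 higher and 6745 lower, against 3974 and 8795 under median scaling, and 2815 and 7021 when scaled to spike-in probes. Members whose RA sign turned were Irf1 (0.015 with quantile normalization), Eif2ak2 (-0.014 with spike-in scaling), Psmb9 (-0.28 with median and -0.33 with spike-in scaling), Ifitm1 (0.23 with quantile normalization and 0.22 with the authors' series values) and Ifitm3 (0.20 with either), the last pair also in fits that left out 1 sample, and the cause was not tested. Equal replicate numbers did not pair samples: deviations of samples with the same number correlated between -0.12 and 0.060 on the VC design and between -0.055 and -0.0027 on the RA design. The replicate block left 27 of the 28 RA member calls, losing Irf7 (0.89, limma adjusted p = 0.0770).

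The VC results depended more on the settings. Members lower in VC numbered 10, against 1 with spike-in scaling, 0 with normexp, 5 with normexp without spots of high local background, 5 with no filter, 3 with the replicate block, 0 with the slide block, 10 with the slide as a random block, 5 with the scan day block and 2 to 8 when 1 sample was left out. The 1 member higher became 0 with spike-in scaling, both normexp fits, no filter and the replicate, slide and scan day blocks, 2 with the mean of detected probes, and 0 to 1 when 1 sample was left out. Of all genes, 958 were higher and 1533 lower. These became 1511 and 1157 under median scaling, 51 and 388 under spike-in scaling, 0 and 0 with normexp, 361 and 607 with normexp without high-background spots, 298 and 706 with no filter, 1474 and 1768 with an intensity trend, 264 and 672 with the replicate block, 0 and 0 with the slide block, 386 and 934 with the scan day block, and 62 to 741 and 335 to 1220 when 1 sample was left out. Testing each probe on its own gave 623 genes higher. Normexp fitted background means of -380, -857 and -303 on VC replicates 1 and 2 and ddH2O replicate 2, and 304 genes passed an unadjusted p under 0.05. That fit turned the sign of Ifih1 (0.94), Oasl2 (0.42), Isg15 (0.74), Psmb8 (0.082) and Tap2 (0.60). The 11 called members kept their sign under the other alternatives in which they were tested. Where 1 sample was left out, this follows from groups that do not overlap. The slide block took the VC difference from the shared slide alone. VC replicate 3 was the only array of its scan day, so the scan day block gave the same fit as leaving that sample out and is no separate check. A slide block could not be fitted for RA, where each slide holds 1 group.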

Other observations

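Negative regulators of interferon signalling and class II genes, which are not members, also differed between groups. In RA, 5 of 9 negative regulators rose and 3 fell, where 35.9% of all genes tested rose and 42.1% fell. Irf2, a factor that competes with Irf1 for the response element, was at least 12.2-fold higher and not detected on any DMSO array, and Socs3 and Ptpn6 were 4.0-fold and 2.36-fold lower. In VC, Socs1, an inhibitor of JAK kinases, was 1.21-fold lower, 1 call among 8.

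Of 6 class II genes tested in RA, 1 rose and 4 fell, to be read beside the same shares of all genes. Cd74, which encodes the invariant chain that guides class II molecules, was 5.4-fold higher, and H2-DMa and H2-DMb1, which load their peptides, were 3.11-fold and 2.63-fold lower. In VC, H2-Ab1 and H2-DMb1 were 1.42-fold and 1.36-fold lower, 2 calls among 6. Of 3 interferon genes tested in RA, Ifna2 and Ifna1 differed by log2 0.42 and 0.39 and passed, and these genes are close copies whose probes may bind each other's transcripts.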
